A study of Mus musculus with 18 samples.

Results

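Malat1, Neat1, Miat, Snhg11, Gas5 and Snhg1, chosen by name as nuclear long noncoding RNAs and hosts of small nucleolar RNAs (snoRNAs), were examined by RNA-Seq in the ventral dentate gyrus of adult male mice. All 6 were present among the 34620 genes listed and were among the 17421 with enough counts to be tested. The 6 libraries came from Swiss Webster males of 8 to 12 weeks, 2 for each of the groups WT, F1 and F2. WT males had WT mothers and grandmothers and came from a lineage bred in parallel. F1 males were themselves WT but came from parents that both lacked 1 copy of the serotonin 1A receptor gene (H mothers and H fathers). F2 males were born to F1 females mated with WT males, and so had an H grandmother. No animal sequenced carried the receptor deletion itself. The comparison asks whether the maternal environment left differences in the RNA of the offspring, although the fathers of F1 also differed from those of WT and F2. The granule cell layer was dissected from brain sections and not sorted, and how many animals entered a library is not given in the sources used here. Adjusted p-values (q) therefore set a difference between groups against the spread between libraries. That spread may in part be technical and may not hold the full spread between animals.

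The RNAs of these genes act in, or are processed in, the nucleus. Malat1 lies in nuclear speckles, the stores of splicing factors, and Neat1 is the scaffold of paraspeckles, bodies that hold RNA-binding proteins. Miat, also called Gomafu, is a neuronal RNA of the nucleoplasm that binds splicing factors. Snhg11, Gas5 and Snhg1 carry snoRNAs in their introns. Once spliced, the introns are trimmed to snoRNAs that guide the modification of ribosomal RNA. The joined exons of Gas5 and Snhg1 are known to be degraded in the cytoplasm by nonsense-mediated decay, a pathway that removes RNAs whose translation stops early.

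The genes differ in the signals written in their sequence. The 3′ ends of Malat1 and Neat1 are shown because they set these RNAs apart from ordinary messengers. The ends of Malat1 and of the long form of Neat1 are made by cleavage without a poly(A) tail, and an A-rich stretch pairs with U-rich stretches upstream in a triple helix that protects the RNA. Capitals mark the letters TTTCTTTT, TTTTGCTTT and AAAGCAAAA, read from mm9 on the minus strand at chr19:5795921-5796073 for Malat1 and chr19:5824708-5824805 for Neat1, whose gene model ends with these letters.
Malat1, 3′ end: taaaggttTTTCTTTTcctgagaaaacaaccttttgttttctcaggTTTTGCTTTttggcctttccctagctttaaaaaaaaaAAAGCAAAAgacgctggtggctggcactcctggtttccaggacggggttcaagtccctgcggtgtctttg
Neat1, 3′ end: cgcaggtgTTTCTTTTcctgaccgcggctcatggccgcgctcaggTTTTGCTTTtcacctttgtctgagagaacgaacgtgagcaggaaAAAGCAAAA
Searched on the RNA strand alone, the 3 stretches occurred in this order, both U-rich ones within the 150 bases before the A-rich one, in 2 of 17073 tested genes with exon sequence (0.0117%), and these 2 were Malat1 and Neat1. The letters searched are those of the 2 ends shown, so the match of these 2 genes was set by the search.

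Miat is shown for its repeats of TACTAAC, the letters of the branch point that splicing factor SF1 recognises. Capitals mark each copy at chr5:112646331-112646478 and chr5:112645774-112645830 (mm9, minus strand).
Miat, first cluster: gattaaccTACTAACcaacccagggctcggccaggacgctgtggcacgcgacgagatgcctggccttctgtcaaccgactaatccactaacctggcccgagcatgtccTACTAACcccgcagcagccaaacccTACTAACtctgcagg
Miat, second cluster: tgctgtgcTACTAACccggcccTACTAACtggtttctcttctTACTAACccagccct
The exons of Miat held 6 copies, or 0.685 per kb, and 2 of the 17073 genes (0.0117%), Miat included, held as many. Neat1 and Gas5 had 1 copy each, as 1389 genes (8.14%) had at least 1, and Malat1, Snhg11 and Snhg1 had none.

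The hosts are shown by 1 of their snoRNAs each, since the snoRNA is the product kept from the intron. Snord47 lies in Gas5 (chr1:162968213-162968289), Snord22 in Snhg1 (chr19:8800356-8800481) and SNORA71 in Snhg11 (chr2:158203958-158204090), all on the plus strand of mm9. Capitals mark boxes C and D in Snord47, box D in Snord22 and the ACA box in SNORA71.
Snord47: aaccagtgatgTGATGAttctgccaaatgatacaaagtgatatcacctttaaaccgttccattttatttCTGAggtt
Snord22: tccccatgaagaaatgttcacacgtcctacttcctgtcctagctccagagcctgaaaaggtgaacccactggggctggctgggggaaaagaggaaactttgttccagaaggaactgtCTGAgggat
SNORA71: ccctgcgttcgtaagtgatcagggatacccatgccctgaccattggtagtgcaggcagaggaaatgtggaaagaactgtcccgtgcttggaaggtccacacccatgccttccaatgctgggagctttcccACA

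The starts of Gas5 and Snhg1 are shown because both are known as hosts with a terminal pyrimidine tract at the 5′ end, a feature shared with ribosomal protein genes. The sequences run from 30 bases before the RefSeq start to 50 bases from it (GRCm38.p6, chr1:161035136-161035215 and chr19:8723457-8723536, plus strand). Capitals mark the pyrimidines that begin at the start site.
Gas5, a second start: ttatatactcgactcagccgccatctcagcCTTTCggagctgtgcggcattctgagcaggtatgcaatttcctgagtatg
Snhg1, start: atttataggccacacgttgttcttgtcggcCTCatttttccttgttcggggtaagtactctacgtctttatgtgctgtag
A C followed by at least 4 pyrimidines stood at this start of Gas5 and at that of Miat, and at 2.51% of 32851 RefSeq promoters. The RefSeq start of Snhg1 did not meet this rule, as its pyrimidines (CTC) are followed by an A. The letters TATA, searched on the sense strand from 20 to 40 bases before the start, were present at this start of Gas5 and that of Snhg1 and in 5.34% of promoters. The other RefSeq start of Gas5 had neither the pyrimidine tract nor TATA in these windows.

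In the GENCODE M1 annotation of mm9, the 6 models run from a single unbroken exon to a spliced gene. Malat1 (chr19:5795690-5802671, minus strand) is 1 exon block of 6982 bases, and Neat1 (chr19:5824708-5845478, minus strand) is 1 block of 20771 bases. Miat (chr5:112642248-112657968, minus strand) has 7 blocks with 8760 exonic bases, 55.7% of its span. Snhg11 (chr2:158201374-158211881, plus strand) has 4 blocks and 8521 exonic bases. It is typed as protein coding in this annotation and as a long noncoding RNA in RefSeq.

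Gas5 (chr1:162964553-162968670, plus strand) has 3760 exonic bases in 3 blocks and Snhg1 (chr19:8797986-8800932, plus strand) 2947 in 1 block. Gas5 spans 9 annotated snoRNAs, Snhg1 8 and Snhg11 2. Because some transcripts of the hosts retain introns, 18 of the 19 snoRNAs lie wholly within annotated exons of their host. A read within both would have been left uncounted as ambiguous. Each of the 10 snoRNA symbols with a single position in the annotation stood at 0 counts in every library. Symbols with several positions had few counts, which cannot be assigned to 1 of them. SNORA71, with 15 positions, had 23 and 20 counts in WT, 10 and 5 in F1, and 6 and 11 in F2, SNORD24 had at most 7 and SNORD79 at most 3.

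**Figure D1:**
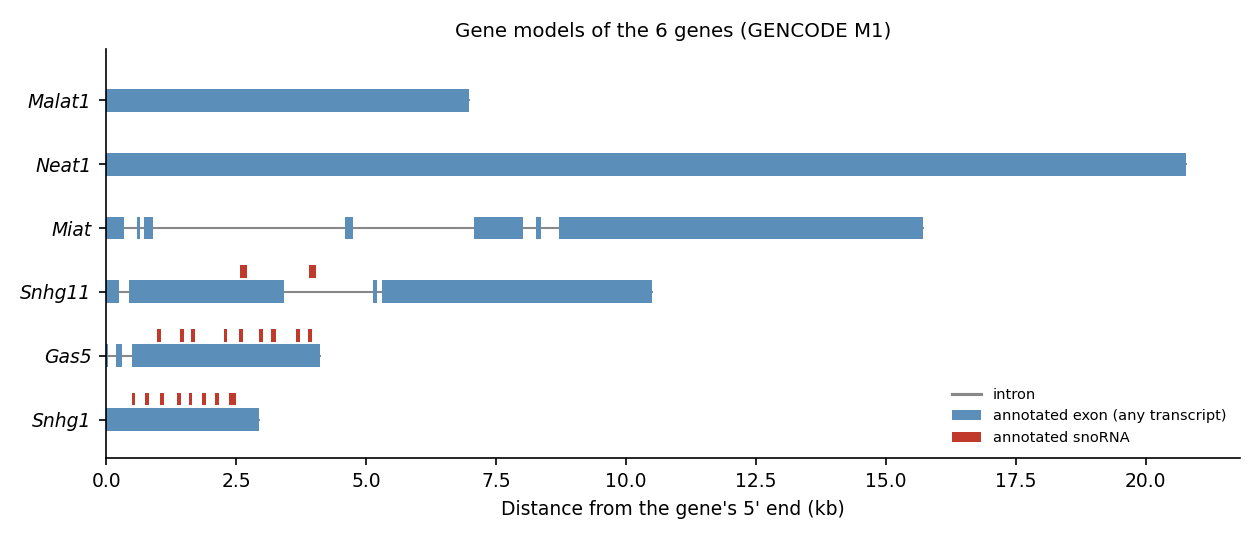
Gene models of the 6 genes, drawn from the 5′ end of each gene (distance in kb). Blue blocks are exons of any annotated transcript, grey lines introns and red blocks annotated snoRNAs. Malat1, Neat1 and Snhg1 are single blocks, while Miat is exonic over 55.7% of its span.

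Reads counted on genes ranged from 26358165 to 33727936 per library. Reads that aligned once but lay at least partly outside annotated exons were recorded as no-feature reads, and they made up 12.2% to 20.7% of reads with a single alignment. Counts were scaled to library size with edgeR's TMM factors and are given as CPM. Htr1a, which encodes the serotonin 1A receptor, was detected at 49.3 to 68.6 CPM in all libraries, with q of 0.332 in F1 and 0.266 in F2 against WT. Markers of granule cells were present, the 12 summing to between 1453 and 2254 CPM, and every marker of the other cell types checked was above 0 in every library. Replicates differed by more than counting noise (chi-square per degree of freedom of 23.0 in WT, 18.5 in F1 and 22.3 in F2), so none was treated as a duplicate.

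All 6 RNAs were lower in the F1 and F2 libraries than in both WT libraries. In F1, each of the 6 passed the threshold of q under 0.01, being 32.9% to 58.5% lower. In F2, 5 of the 6 passed it, being 30.1% to 65.9% lower, and Snhg1 did not. Malat1 and Snhg11 had the widest differences and Gas5 and Snhg1 the narrowest. Of all genes tested, 8.54% were lower past the threshold in F1, 8.1% in F2 and 6.07% in both, beside 6, 5 and 5 of the 6 RNAs. The RNAs, and the lists below, were chosen with earlier results of these data known, so such counts are given as a description. A gene with all 4 F1 and F2 libraries below both WT libraries was no rarity, at 23.7% of genes tested, and all 6 RNAs were among these. With the 6 RNAs left out, the share was 45.6% of 1312 genes typed as long noncoding and 21.2% of 15041 protein-coding genes. The same WT libraries served both comparisons, so that a high value in them enters both. In dissected tissue, fewer cells that make an RNA and less of it per cell cannot be told apart.

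**Figure D2:**
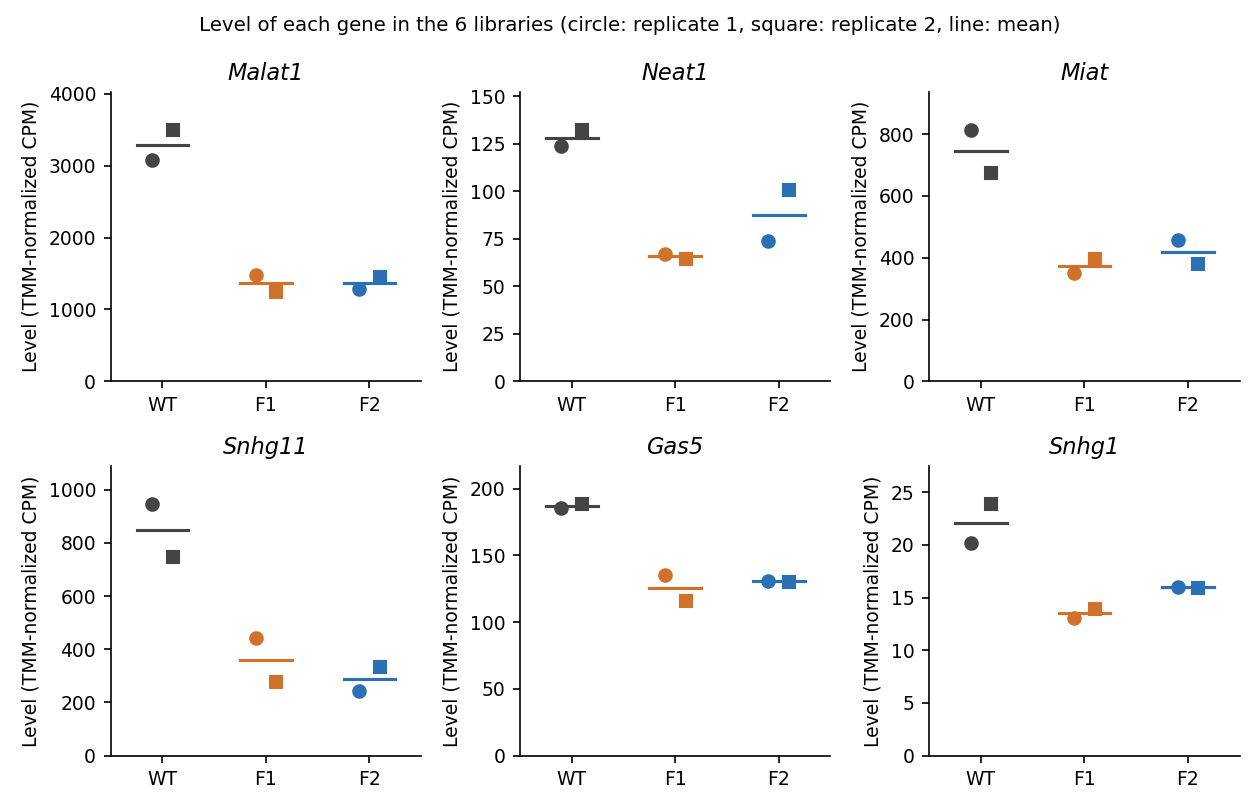
Level of each RNA in every library, in TMM-normalised CPM (axes start at 0, with a scale of their own for each gene). Circles are replicate 1, squares replicate 2 and lines the mean of the group. For each gene both WT libraries lie above the 4 offspring libraries.

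Malat1, the speckle RNA, was the most abundant. Its level was 3084 and 3498 CPM in WT, 1485 and 1246 CPM in F1, and 1283 and 1454 CPM in F2. The lower WT library was still 2.08 times the highest offspring library, whereas libraries of a group differed by at most 1.19 times. The log2 fold change was −1.27 ± 0.13 (SE) in F1 (q = 9.82e-19) and −1.27 ± 0.13 in F2 (q = 2.66e-18). By mean level Malat1 ranked 13 of all genes tested in WT, and 707 genes had a lower fold change in F1 and 677 in F2. A transcript annotated on the opposite strand within Malat1, Gm20417, stood at 0 counts in every library. It lies wholly within the exon block of Malat1. If strand was not used in counting, its reads would have been left uncounted as ambiguous, so the 0 does not show that it is absent.

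Neat1, the paraspeckle scaffold, was counted far less than Malat1, and its F1 libraries lay below its F2 libraries. WT libraries had 124 and 132 CPM, F1 libraries 67.2 and 64.2 CPM, and F2 libraries 74.0 and 101 CPM. The F1 libraries were close together, while the second F2 library lay between the other F2 library and WT. Neat1 fell by 48.7% in F1 (log2 fold change −0.96 ± 0.14, q = 3.21e-09) and by 31.8% in F2 (−0.55 ± 0.14, q = 0.00180). The F2 call was lost without the first WT (q = 0.0157), second WT (q = 0.0400) or first F2 library (log2 fold change −0.34, q = 0.194), and in the quasi-likelihood test (q = 0.0172). Neat1 makes a short polyadenylated and a long isoform without a poly(A) tail, and counts per gene do not separate them. The labels give the RNA as poly(A) RNA.

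Miat, the RNA with the TACTAAC repeats, kept both its calls in each alternative analysis of the same libraries. It had 814 and 674 CPM in WT, 351 and 397 CPM in F1, and 457 and 379 CPM in F2. The lower WT library exceeded the highest offspring library 1.47 times. Its log2 fold change was −0.99 ± 0.14 in F1 (q = 1.23e-10) and −0.83 ± 0.14 in F2 (q = 1.45e-07), and both calls held in all 19 alternative analyses.

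Snhg11, a neuronal snoRNA host, had the largest decrease of the 6 in F2. WT libraries had 947 and 749 CPM, F1 libraries 443 and 276 CPM, and F2 libraries 244 and 334 CPM. It was also the most variable, with a 1.61-fold difference between the F1 libraries, yet the groups WT and offspring did not overlap. Snhg11 fell by 57.6% in F1 (log2 fold change −1.24 ± 0.21, q = 1.70e-07) and by 65.9% in F2 (−1.55 ± 0.21, q = 2.48e-11).

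Gas5, host of box C/D snoRNAs, changed less and varied little. It had 186 and 188 CPM in WT, 135 and 115 CPM in F1, and 131 and 130 CPM in F2. All offspring values were below both WT values, by at least 1.37 times. The decrease was 32.9% in F1 (log2 fold change −0.58 ± 0.12, q = 3.88e-05) and 30.1% in F2 (−0.52 ± 0.12, q = 3.06e-04). Without the second F1 library, q in F1 was 0.0140, and leaving out any 1 of the WT or F2 libraries gave q of 0.0102 to 0.0297 in F2. Zbtb37, on the opposite strand, reaches into the start of Gas5 but shares no exonic base with it.

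Snhg1, the host of Snord22, was the least counted of the 6 by CPM. WT libraries had 20.2 and 23.9 CPM, F1 libraries 13.1 and 13.9 CPM, and F2 libraries 16.0 and 15.9 CPM. Snhg1 fell by 38.6% in F1 (log2 fold change −0.70 ± 0.16, q = 2.35e-04), a call lost without the second WT library (q = 0.0364). In F2 its log2 fold change of −0.46 ± 0.16 did not pass the threshold (q = 0.0240), although both F2 libraries were below both WT libraries.

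**Figure D3:**
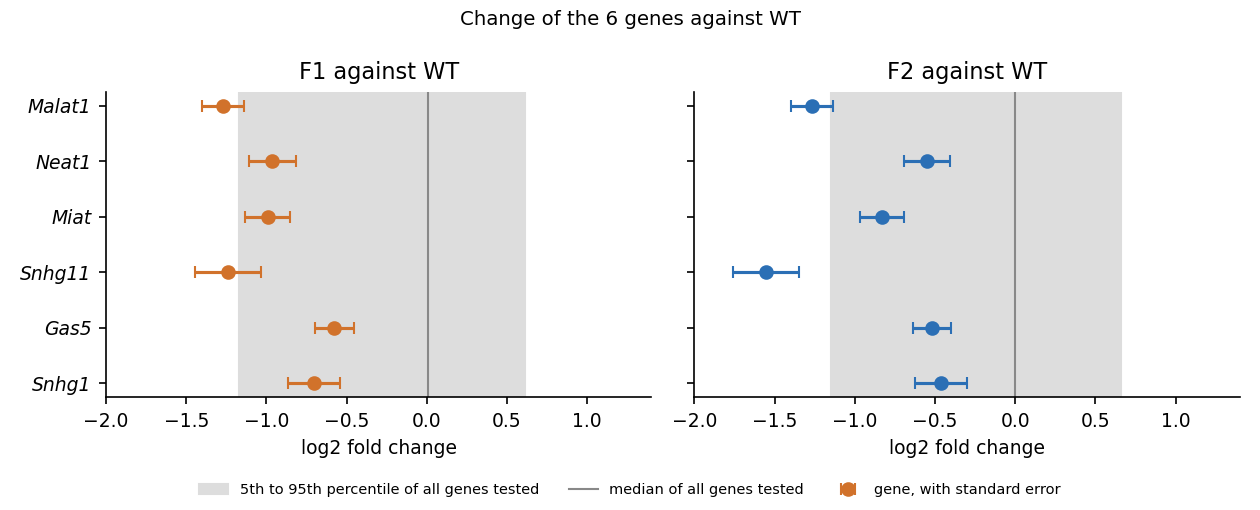
Log2 fold change (x axis) of each RNA against WT in F1 (left) and F2 (right), with its standard error. The grey band spans the 5th to 95th percentile of all 17421 genes tested (−1.17 to 0.61 in F1 and −1.15 to 0.66 in F2) and the grey line is their median (0.01 in F1). Malat1 and Snhg11 lie below the band in both panels and the other 4 within it.

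No member of the group differed between F1 and F2 past the threshold, and few genes did (0.74% of those tested). For Malat1 the difference of F2 from F1 was 0.00 on the log2 scale (95% interval −0.25 to 0.26). Neat1 had the widest, 0.41 higher in F2 (0.13 to 0.70, q = 0.175), and Snhg11 had −0.31 (−0.72 to 0.09). Both depended on single libraries. For Neat1 the difference was 0.17 without the second F2 library and 0.62 without the first (q = 0.0153). For Snhg11 it was 0.07 without the first F1 library, −0.61 without the second F1 library (q = 0.0498), −0.10 without the first F2 library and −0.56 without the second. The intervals were −0.11 to 0.43 for Miat, −0.18 to 0.29 for Gas5 and −0.08 to 0.56 for Snhg1, so that moderate differences between the offspring groups remain possible for each.

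Ordered by level per length of annotated exon, the RNAs spanned a wide range. In WT, Malat1 stood at 471 ± 41.9 CPM per kb (SD, n = 2). Snhg11 (99.5 ± 16.4) and Miat (85.0 ± 11.3) followed, with overlapping libraries, then Gas5 at 49.7 ± 0.533. Snhg1 (7.48 ± 0.886) and Neat1 (6.17 ± 0.286) were the lowest. The order of the means differed in the offspring, where libraries of Snhg11 overlapped those of Gas5, and the change of order was not tested. Miat, Snhg11 and Gas5 came together at 42.7 ± 3.71, 42.2 ± 13.9 and 33.3 ± 3.73 CPM per kb in F1, and in F2 Miat (47.7 ± 6.36) stood above Gas5 (34.7 ± 0.132) and Snhg11 (33.9 ± 7.48). Malat1 remained the highest at 196 CPM per kb in F1 and in F2. The exon length of Neat1 is that of its long isoform, so its level per kb understates a short isoform. Exons of transcripts that retain introns enter the lengths of the hosts, at 91.3% of the span of Gas5 and 100% of that of Snhg1, so that their spliced forms are understated too and the order of levels depends on these models.

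The levels were then set beside the no-feature share of each library, since unspliced nuclear RNA gives reads outside exons. The share was 17.7% and 20.7% in WT, 13.8% and 12.2% in F1, and 13.9% and 17.4% in F2. WT libraries thus had the highest share as well as the most of each RNA. They also had the most genes with a count, 23454 and 23892 against 21998 to 22736 in the offspring. Mitochondrial genes took 6.29% and 8.59% of gene reads in WT and 5.60% to 7.02% in the offspring. The part of these library properties in the levels was not tested. On average F1 was 6.20 points below WT and F2 3.54 points below, each with an exact permutation p of 0.333, the smallest that 2 against 2 libraries allow. The F2 difference was −1.78 points without the first F2 library and −2.07 points without the second WT library. The 4 offspring libraries together were 4.87 points below WT (exact permutation p = 0.0667, the smallest that this design allows).

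Within groups, the RNAs did not follow the share alike. Malat1 was higher in the library of higher share by 1.13 times in WT, 1.19 times in F1 and 1.13 times in F2. Neat1 was also higher there in each group (1.07, 1.05 and 1.36 times). Miat went the other way, its library of higher share having 0.828, 0.884 and 0.828 times the level of the other. Among all genes tested, 14.1% were higher and 15.4% lower in the library of higher share in all 3 groups. Snhg11 was lower in the WT library of higher share (0.791 times) and higher in those of F1 and F2 (1.61 and 1.37 times), and Gas5 (1.02, 1.17 and 0.995 times) and Snhg1 (1.18, 0.939 and 0.993 times) took no single direction over the groups.

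The first WT library and the second F2 library had nearly equal shares, 17.7% and 17.4%. Between them the WT library had 2.12 times the Malat1, 2.15 times the Miat and 2.83 times the Snhg11. This sets 1 library against 1 and was not tested. Gas5 was 1.42 times, Snhg1 1.27 times and Neat1 1.23 times as high in that WT library. A quasi-likelihood fit with the share as a covariate, chosen after the data were seen, left all 6 RNAs lower in both offspring groups. In that fit Miat passed the threshold in F1, and Malat1 and Miat in F2. Malat1 in F1 had a log2 fold change of −0.86 (q = 0.112) and Snhg11 −0.83 (q = 0.421). Neat1 went to −0.45 in F1 (q = 0.452) and −0.27 in F2 (q = 0.379). Miat went the other way, to −1.53 in F1 (q = 0.00945) and −1.14 in F2 (q = 0.00331). Over all genes, 25 were called in F1 and 205 in F2, against 1030 and 997 in the quasi-likelihood fit without the share. With 6 libraries, the share and the groups cannot be fully told apart.

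**Figure D4:**
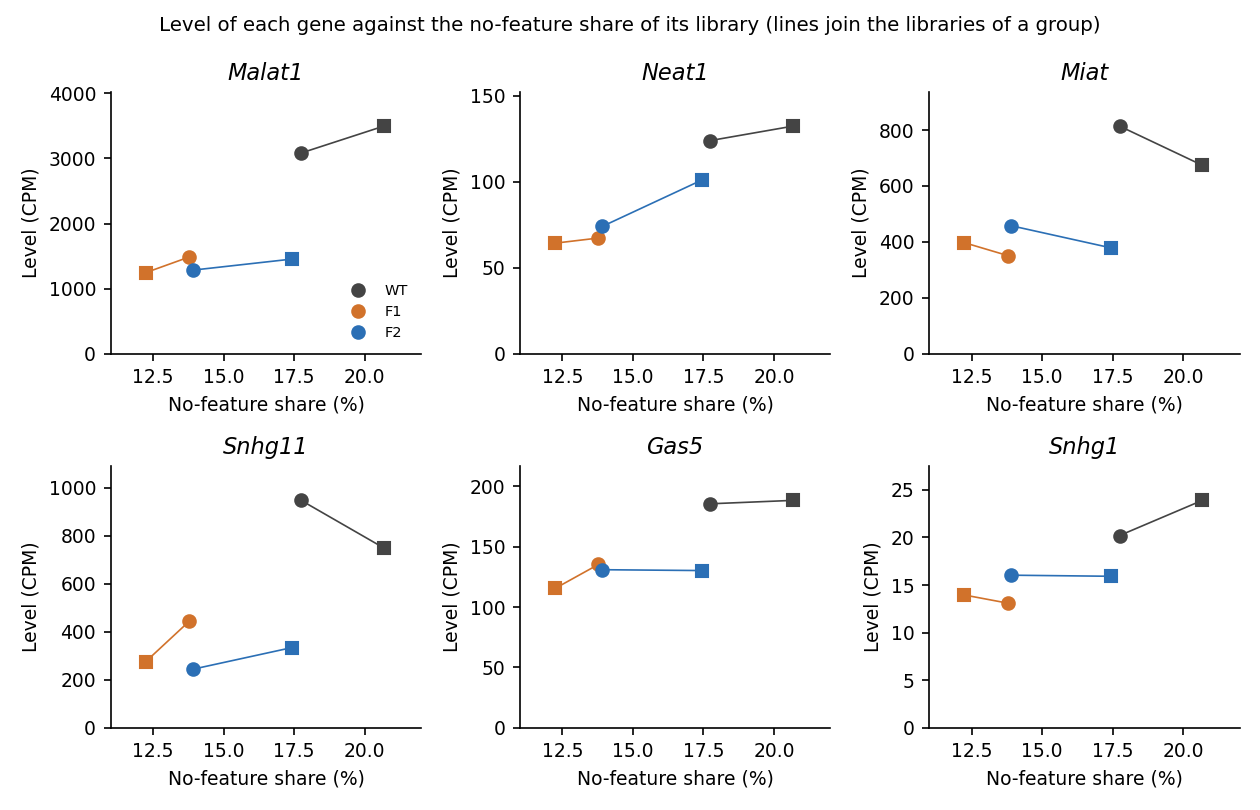
Level of each RNA in CPM (y axis, from 0) against the no-feature share of its library in percent (x axis). Grey is WT, orange F1 and blue F2, circles are replicate 1 and squares replicate 2, and lines join the libraries of a group. The first WT and second F2 libraries share nearly the same position on the x axis and differ in level for every gene, while the lines slope upwards for Malat1 and Neat1 and downwards for Miat.

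Other noncoding RNAs were lower in part. Of all genes tested, 8.54% were lower and 3.77% higher in F1, and 8.1% lower and 3.87% higher in F2. Of 1312 tested genes that GENCODE types as long noncoding, 212 (16.2%) were lower in F1 and 19 higher, and 183 (13.9%) were lower in F2 and 13 higher. Their median log2 fold change was −0.49 in F1 and −0.44 in F2, against 0.04 and 0.02 for 15041 protein-coding genes. Of 13 other named long noncoding RNAs tested, 3 were lower and 2 higher in F1, and 4 lower and 1 higher in F2. Meg3, an imprinted maternally expressed RNA of the neuronal nucleus, fell from 2665 and 2339 CPM in WT to between 782 and 1240 CPM in the offspring. Mirg, a miRNA host of the same imprinted region, fell by 1.64 on the log2 scale in F1 and by 2.05 in F2, and Firre (listed as 6720401G13Rik), a nuclear RNA of the X chromosome, by 0.88 and 0.64. Norad, a cytoplasmic RNA listed here as 2900097C17Rik, rose (log2 fold change 1.47 in F1 and 1.67 in F2), though at 0.668 to 3.44 CPM.

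The hosts were read beside the same shares of all genes. Among 6 other noncoding snoRNA hosts tested, 3 fell in F1 and 2 in F2, and none rose. Snhg12 had 36.4 and 34.3 CPM in WT and 18.4 to 21.1 CPM in the offspring (log2 fold change −0.85 in F1 and −0.75 in F2), and Snhg7 fell by 0.58 in both. Zfas1 fell in F1 (−0.54, q = 0.00423) and had −0.35 in F2 (q = 0.0862), and F2 did not differ from F1 past the threshold. Of 28 protein-coding hosts of snoRNAs, 2 fell in F1 (7.14%) and 1 in F2 (3.57%), which is below the 8.54% and 8.1% of all genes. Nop56, which is both such a host and a core protein of snoRNA particles, fell by 0.55 and 0.64, whereas Eef2, a translation elongation factor, rose in F2 (0.45, q = 0.00386). Nop56 was the 1 gene called (6.25%) among the genes of 16 proteins that build or bind snoRNA particles. Their median was 0.05 in F1 and −0.03 in F2. The 991 tested genes that GENCODE tags as hosts of noncoding RNA had a median of 0.04 in both comparisons.

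Decreases were also counted among RNAs of speckle proteins and RNAs known for introns detained in the nucleus. Of all genes, 8.54% were lower in F1 and 8.1% in F2, and protein levels were not measured. These lists too were chosen with earlier results of these data known. Of 22 RNAs of speckle and splicing proteins, 13 were lower in F1 and 11 in F2, with medians of −0.47 and −0.41, while 1 was higher in F2. Srsf2, a serine- and arginine-rich splicing factor that shares speckles with Malat1, fell by 1.16 and 1.10 on the log2 scale. Srrm2, a scaffold protein of speckles, fell from 621 and 499 CPM in WT to between 257 and 311 CPM in the offspring. Srsf5 fell by 0.87 and 0.76 and Pnn by 0.72 and 0.80. Of 18 splicing kinases and other RNAs with detained introns, 12 were lower in F1 and 14 in F2, with none higher and medians of −0.49 and −0.70. Clk1, a kinase of splicing factors, fell by 1.30 and 1.55 and its relatives Clk4 by 1.19 and 1.29 and Clk2 by 0.97 and 0.98. Nktr fell by 0.90 in both, while Ddx5, the most counted of the list, did not pass the threshold (−0.33 and −0.22).

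RNAs of the protein partners of Neat1, and of the decay pathway of Gas5 and Snhg1, were read next. The same 8.54% and 8.1% of all genes were lower in F1 and F2. Of 20 RNAs of paraspeckle proteins, 4 were lower in F1 and 5 in F2, and none was higher. Ewsr1 fell by 0.56 and 0.50, Cpsf7 by 0.54 and 0.52 and Dazap1 by 0.48 and 0.50, whereas Hnrnpk, the most counted, had 0.04 and 0.08. Of 13 genes of nonsense-mediated decay and the exon junction complex, 2 were lower in F1 and 3 in F2. Magohb fell by 0.63 and 0.99, and Smg1, the kinase of the pathway, fell in F1 (−0.46, q = 0.00533) and had −0.43 in F2 (q = 0.0105).

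**Figure D5:**
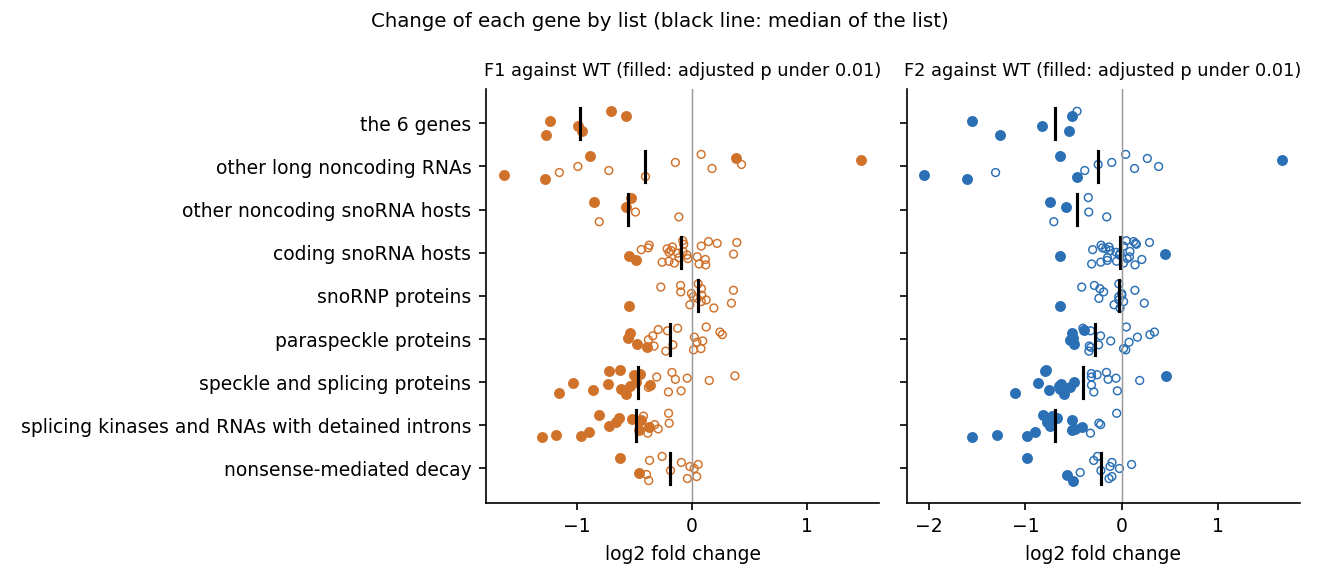
Log2 fold change (x axis) of every tested gene of each list in F1 (left) and F2 (right) against WT. Filled points passed q under 0.01, open points did not, and black lines are the medians of the lists. The medians of the 6 RNAs are −0.98 in F1 and −0.69 in F2, and those of the RNAs of snoRNP proteins 0.05 and −0.03.

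Markers of other cell types were counted in the same fits, where 3.77% of all genes tested were higher in F1 and 3.87% in F2. Of 14 oligodendrocyte markers, 4 were higher in F1 and 2 in F2, and their sum was 1195 and 2126 CPM in WT, 3202 and 2407 CPM in F1, and 1665 and 3107 CPM in F2. The sum thus overlapped between WT and F2. Of 12 astrocyte markers, 2 were higher in F1 and 6 in F2, with a sum of 2621 and 2879 CPM in WT, 3158 and 3897 CPM in F1, and 4294 and 3613 CPM in F2. Of 12 microglial markers, 1 was higher in F1 and 6 in F2, and they summed to between 199 and 201 CPM in WT and between 239 and 312 CPM in the offspring. Endothelial markers were higher for 1 of 12 in F1 and 2 in F2, and interneuron markers for 1 and 4 of 12. Granule cell markers had 1 of 12 lower in each comparison and none higher, but their sum was 1706 and 1749 CPM in WT, 1453 and 1820 CPM in F1, and 2254 and 1957 CPM in F2, with a median log2 fold change of −0.10 in F1 and 0.38 in F2. Markers of mossy and CA cells had 1 lower and 1 higher in each. The part of cell composition in the levels of the 6 RNAs was not tested.

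The 6 RNAs varied together across the libraries, with Pearson's r of log2 CPM between pairs from 0.73 for Snhg1 and Snhg11 to 0.98 for Gas5 and Malat1 (6 libraries). These values largely repeat the step between WT and offspring and are given as a description. The gene most like Malat1 was 2810055G20Rik (r = 1.00 as rounded), listed by RefSeq as Mir99ahg, a long noncoding miRNA host, with 13.1 and 14.9 CPM in WT and 4.01 to 5.21 CPM in the offspring. Il3ra, a subunit of an interleukin receptor, followed (0.998). Snhg11 was most like Mirg and then Zfr2, Gas5 most like Ewsr1 and then Ccna2, and Miat most like Ubn2 and then Myef2 (r of 0.996 to 0.999). Neat1 was most like Rad9b (0.995) and then Ccdc88b (0.991), and Snhg1 most like Gm3531 (0.998) and then 2700023E23Rik (0.997). These were the closest of 13679 genes, a number that includes the 6 RNAs, and r does not show the size of a change. In F1 the log2 fold change was −0.22 for Gm3531 against −0.70 for Snhg1, and −1.60 for 2810055G20Rik against −1.27 for Malat1.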

How the data were processed

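The authors perfused males from at least 3 litters with RNAlater, dissected the ventral dentate gyrus from cryosections and sequenced single-end reads of 50 bases. Reads were aligned to mm9 with TopHat without a search for new junctions, and HTSeq in intersection-strict mode gave the deposited counts per gene, without normalisation. This mode drops reads that reach outside exons, fit several genes or align to several places. Whether strand was used in counting is not given in the sources used here, so antisense reads may be unresolved.

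Counts were compared with the exact test of edgeR 4.0.16 (R 4.3.3) after filterByExpr and TMM scaling, with common and tagwise dispersion from all 6 libraries and Benjamini-Hochberg adjustment over all 17421 genes, at q under 0.01. Libraries of a group varied by 10.6% at the common dispersion (0.0113). Standard errors follow from mean counts and dispersion. Rows that name no gene (no-feature, ambiguous, not unique) were left out of library sizes, and the ambiguous share was 1.33% to 1.53%. The no-feature share is no-feature reads over gene, no-feature and ambiguous reads. Alternatives were edgeR's quasi-likelihood test with and without a replicate block, DESeq2 1.42.0, other scalings, filters and dispersions, a threshold of 0.05, each library left out, and a covariate for the no-feature share. The fits were tested on simulated data. Groups of 2 libraries give little information on how 1 gene varies.

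Models and gene types came from GENCODE M1, which matched 32955 of 34620 symbols, and start sites from RefSeq. The members and lists were chosen with earlier results of these data known. Genes named beside the members were, per list, those past the threshold in both comparisons (at most 4, by mean change) and the most counted, and the 2 most correlated with each member among genes averaging at least 50 counts. The 12 bisulfite samples were not analysed here.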

Additional observations from a re-analysis of the deposited data

How the results depend on the processing

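All 6 RNAs stayed lower than WT in F1 and F2 in each of the 19 alternatives, while calls depended on the setting. For each RNA all F1 and F2 libraries lay below both WT libraries. Leaving out a library or changing the test could therefore hardly reverse the direction, and the threshold of 0.05 repeats the main fit. Leaving out 1 library at a time gave 5 to 6 RNAs called in F1, 3 to 5 in F2, 988 to 2043 genes in F1, 703 to 2585 in F2 and 52 to 223 for F2 against F1. In F1 the count was 988 without the first WT, 1355 without the second WT and 1071 without the second F1 library. In F2 it was 802 without the first WT, 703 without the first F2 and 973 without the second F2 library, and for F2 against F1 it was 52 without the first F2 and 223 without the second F1 library. A group left with 1 library was assumed to vary like the others. In the order F1, F2 and F2 against F1, the 2144, 2085 and 129 genes called became 1030, 997 and 2 with the quasi-likelihood test (4 RNAs called in F2) and 3623, 3602 and 230 at a threshold of 0.05, where Snhg1 passed in F2. The quasi-likelihood test with the no-feature share as a covariate gave 25, 205 and 10, with 1 RNA called in F1 and 2 in F2. These counts stand beside the 1030, 997 and 2 of the same test without the share. The added term also leaves less information on the spread between libraries. The quasi-likelihood test with the replicate block gave 848, 758 and 9, with 6 RNAs called in F1 and 3 in F2. The replicate numbers are not known to pair the samples, since deviations of same-numbered libraries correlated at −0.03 (WT and F1), −0.08 (WT and F2) and −0.18 (F1 and F2). With the F2 numbers crossed in the block, added after the data were seen, the counts were 1340, 1446 and 27. Scaling to gene and no-feature reads together, without ambiguous reads, gave 925 higher and 1078 lower genes in F1, against 657 and 1487, and the calls of the 6 RNAs held. The cause of these changes was not tested. No correlation of the RNAs with the no-feature share was computed, because the WT libraries stand apart for every RNA and a group holds only 2.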
